A study of Homo sapiens with 8 samples.

Results

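Methylation was followed at 10 human germline genes, DAZL, DDX4, PIWIL1, PIWIL2, MAEL, ASZ1, TDRD1, MOV10L1, STK31 and HORMAD1. For each gene, every CpG listed in any library within 2 kb of its hg19 start was taken, and the reads of these CpGs were summed. This gave 340 of the 3209182 listed CpGs, between 11 (TDRD1) and 130 (PIWIL1) per gene. The cells were HUES64, an established human embryonic stem cell line, with the genotype given as a DNMT1 knockout in every library. DNMT1 is the enzyme that restores CpG methylation on the new DNA strand after replication, and the course followed the withdrawal of DNMT1*, an exogenous copy that keeps a line without the endogenous gene alive. One library was made for each of days 0 to 7 by reduced representation bisulfite sequencing (RRBS), in which DNA is cut at the MspI site CCGG and methylation is read at CpGs near the cuts. All libraries share the knockout. There was no library of cells kept on DNMT1* past day 0 and no repeat of the course, so day 0 is the reference.

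The genes act in germ cells. DAZL is an RNA-binding protein and DDX4 an RNA helicase of germ cells. PIWIL1 and PIWIL2 are PIWI proteins, which carry piRNAs, small RNAs that silence transposons. MAEL, ASZ1, TDRD1 and MOV10L1 take part in making or using piRNAs, and STK31 is a Tudor-domain protein of germ cells. HORMAD1 sits on the axes of meiotic chromosomes. Many germline genes have CpG-rich promoters that are methylated and silent outside the germ line. Expression was not measured in these libraries, so silencing was not checked, and the genes are described by methylation alone.

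Where the measured CpGs lie was shown first, because RRBS reads only some of them. RefSeq promoter sequences on GRCh38 were found for 8 of the 10 genes, in 11 entries; PIWIL2 and HORMAD1 had none. The entries were set against the hg19 CpG positions by the spacing of their CpGs alone. In 7 entries of 6 genes there was exactly 1 placement at which 5 or more listed CpGs fell in the promoter and every one of them fell on a CG. The entries of DDX4 and TDRD1 and the other MAEL entry could not be placed. The 250 bases before the start are printed for 4 genes, DAZL with both of its starts, because their differences in residual methylation are described below. Capitals mark the CpGs listed in the libraries.
DAZL, first start, GRCh38 chr3:16605424-16605673, minus strand: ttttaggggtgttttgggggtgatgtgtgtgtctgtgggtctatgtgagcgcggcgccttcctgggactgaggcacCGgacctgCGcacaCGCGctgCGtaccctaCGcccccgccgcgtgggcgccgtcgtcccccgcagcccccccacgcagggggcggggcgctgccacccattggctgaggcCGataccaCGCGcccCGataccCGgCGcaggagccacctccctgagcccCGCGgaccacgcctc
DAZL, second start, GRCh38 chr3:16604791-16605040, minus strand: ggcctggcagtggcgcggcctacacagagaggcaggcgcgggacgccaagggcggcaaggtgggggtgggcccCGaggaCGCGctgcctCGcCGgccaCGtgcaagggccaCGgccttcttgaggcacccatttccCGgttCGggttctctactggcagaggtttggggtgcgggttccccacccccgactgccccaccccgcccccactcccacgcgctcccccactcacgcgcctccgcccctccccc
PIWIL1, GRCh38 chr12:130337637-130337886, plus strand: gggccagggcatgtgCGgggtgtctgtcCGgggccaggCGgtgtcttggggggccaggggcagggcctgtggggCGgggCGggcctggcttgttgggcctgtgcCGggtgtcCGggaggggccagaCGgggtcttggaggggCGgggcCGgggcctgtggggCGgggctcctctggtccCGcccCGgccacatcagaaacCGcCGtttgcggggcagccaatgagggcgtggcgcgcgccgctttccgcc
MOV10L1, GRCh38 chr22:50089756-50090005, plus strand: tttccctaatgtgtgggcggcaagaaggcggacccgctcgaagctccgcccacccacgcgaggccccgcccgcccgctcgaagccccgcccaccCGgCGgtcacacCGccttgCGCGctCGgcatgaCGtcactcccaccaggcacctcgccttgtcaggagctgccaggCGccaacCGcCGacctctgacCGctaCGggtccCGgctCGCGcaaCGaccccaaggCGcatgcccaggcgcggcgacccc
STK31, GRCh38 chr7:23709969-23710218, plus strand: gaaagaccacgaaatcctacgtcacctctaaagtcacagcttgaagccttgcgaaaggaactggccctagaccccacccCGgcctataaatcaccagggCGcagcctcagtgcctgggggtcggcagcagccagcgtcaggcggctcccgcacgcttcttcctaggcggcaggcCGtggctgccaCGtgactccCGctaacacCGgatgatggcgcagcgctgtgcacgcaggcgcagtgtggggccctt
Of the CpGs in these stretches, 14 of 28 and 9 of 23 were listed at the DAZL starts, 15 of 22 at PIWIL1, 17 of 33 at MOV10L1 and 6 of 19 at STK31.

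Coverage of the starts was uneven. All 28 CpGs of PIWIL2 (hg19 chromosome 8, start 22132810) and all 13 of MAEL (chromosome 1, start 166958347) lay within 500 bp of the start, as did 53 of 60 at MOV10L1 (chromosome 22, start 50528435), 18 of 30 at DAZL (chromosome 3, start 16647006), 8 of 13 at ASZ1 (chromosome 7, start 117067577), 50 of 130 at PIWIL1 (chromosome 12, start 130822433) and 7 of 15 at STK31 (chromosome 7, start 23749786). HORMAD1 (chromosome 1, start 150693371) had 3 of 23 there and DDX4 (chromosome 5, start 55033845) 1 of 17. TDRD1 (chromosome 10, start 115939029) had none, and its 11 CpGs lay 1190 to 1499 bases downstream. For TDRD1 and DDX4 the values are therefore those of the flank, not of the start itself.

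The libraries of days 0, 1, 2, 6 and 7 were deep, with 77691782 to 161534152 CpG read calls, and those of days 3, 4 and 5 shallow, with 12359218 to 15156251. Per gene, summed reads ranged from 33 (ASZ1, day 4) to 6968 (PIWIL1, day 2). A read is counted at each CpG it covers, so neighbouring CpGs share reads, and the Wilson 95% intervals given here cover counting error only. As a course to compare with, reads were pooled over 68837 autosomal tiles of 4 kb at 80% or more methylation on days 0 and 1 together. It ran 86.0, 82.0, 72.5, 51.9, 36.9, 30.6, 21.8 and 18.2% from day 0 to day 7.

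On day 0, every gene was highly methylated, from 74.1% at DDX4 to 93.0% at DAZL, with a median of 86.5% over the 10. By day 7, the genes stood between 11.2% (MAEL) and 23.7% (STK31), with a median of 15.2%. The fall between these days was 57.8 to 78.0 points, and the lowest level on day 0 lay far above the highest on day 7.

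Among the germ-cell RNA-binding proteins, DAZL was read as 93.0, 91.7, 83.2, 69.1, 54.9, 62.0, 26.3 and 20.2% methylated on days 0 to 7. It was above the autosomal course on every day, with its whole interval on days 0 to 6, and on days 3 to 5 together 63.8% of 257 reads were methylated (interval 57.8 to 69.4%). DDX4 was read as 74.1, 71.4, 65.0, 43.4, 31.5, 17.2, 19.2 and 16.3%. It began lowest of the 10 and reached its late level by day 5, where 17 of 99 reads were methylated.

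Of the PIWI proteins, PIWIL1 was read as 86.6, 83.8, 74.0, 60.3, 31.6, 27.5, 17.7 and 13.3%. PIWIL2 was read as 89.2, 89.97, 80.05, 71.1, 56.2, 25, 17.7 and 11.9%. The pair ended near each other by different paths: on day 4 PIWIL1 was below the autosomal course (interval 27.1 to 36.5%) and PIWIL2 above it (46.6 to 65.3%), with 367 and 105 reads.

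Among the piRNA pathway genes, MAEL was read as 89.2, 84.5, 76.8, 60.9, 62.9, 44.8, 20.1 and 11.2%. MAEL was thus among the highest on days 4 and 5 and the lowest of all on day 7. MOV10L1, a helicase needed to make piRNAs, was read as 85.3, 84.6, 77.2, 59.6, 46.3, 29.1, 15.6 and 14.1%. TDRD1, a Tudor-domain partner of PIWI proteins, was read as 79.0, 72.7, 67.0, 39.4, 21.7, 27.0, 20.4 and 13.8%, and its intervals on days 0 to 4 were all below the autosomal course.

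ASZ1, a protein of the germ-cell mitochondrial surface where piRNAs are made, had the least even course, at 85.7, 73.5, 83.0, 65.9, 33.3, 6.98, 23.1 and 17.2%. Its day 1 level (200 reads, interval 67.0 to 79.1%) was below its day 2 level (358 reads, 78.7 to 86.5%), and its day 5 level rests on 3 methylated of 43 reads. STK31 was read as 91.2, 77.5, 74.9, 45.6, 46.2, 29.2, 24.5 and 23.7%. It lost the most on day 1, when it kept 85.0% of the day 0 level (interval 80.2 to 90.1%), and changed little between days 6 and 7. HORMAD1 was read as 86.5, 84.1, 73.3, 49.2, 41.8, 34.3, 24.2 and 16.3%, and its interval held the autosomal course on every day but day 6, when it lay above it.

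In the middle of the course the genes spread most. Days 3 to 5 are also the shallow libraries, where counting error adds to the spread, and its part was not tested. On days 3 to 5 pooled, DAZL (63.8%), MAEL (57.4% of 251 reads, 51.2 to 63.3%) and PIWIL2 (52.8% of 318 reads, 47.3 to 58.3%) were highest, and DDX4 (29.9% of 271 reads, 24.7 to 35.6%) and TDRD1 (31.2% of 154 reads, 24.4 to 38.9%) lowest. These sums mix 3 days in proportions that differ by gene. Against the autosomal course, 8 of the 10 genes were above it on day 2, 6 of them with the whole interval (DAZL, MAEL, ASZ1, PIWIL1, PIWIL2 and MOV10L1). On day 7, 2 were above it, STK31 with the whole interval, and MAEL, PIWIL1, PIWIL2, TDRD1 and MOV10L1 were below it with theirs. The share of single tiles above or below the pooled course on these days was not counted. The counts of genes on each side therefore do not set them apart from other highly methylated DNA. DDX4 and TDRD1 also started below the level required of the tiles in that course.

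Over the 5 deep libraries, 8 of the 10 genes were lower on each later day. The exceptions were PIWIL2, which stood level on days 0 and 1, and ASZ1. Over all 8 libraries 3 genes, PIWIL1, MOV10L1 and HORMAD1, were lower at every step. The autosomal course was lower at every step too. The share of single tiles that were was not counted, so these counts do not set the genes apart.

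**Figure D1:**
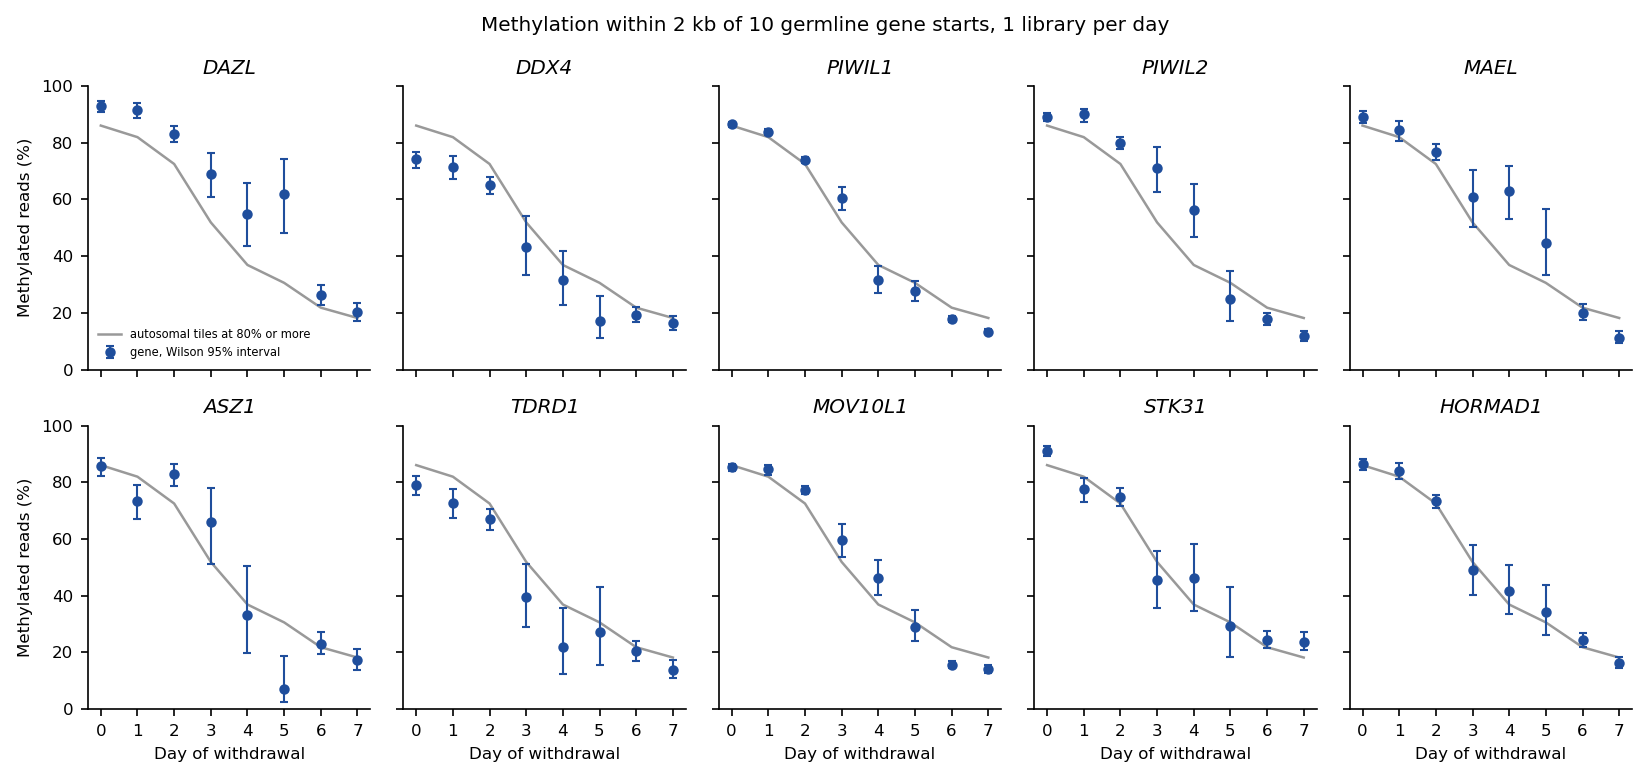
Percent of methylated reads within 2 kb of each start (y) by day of withdrawal (x), with Wilson 95% intervals; the grey line is the course of autosomal 4-kb tiles at 80% or more. The 10 genes lie between 74.1 and 93.0% at the start and between 11.2 and 23.7% at the end, and DAZL and MAEL lie above the grey line on days 4 and 5.

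Whether each gene fell over the days was tested in 1 fit over 169719 features, the 10 gene windows and all 4-kb autosomal tiles with at least 10 reads in every library. The model was a quasi-binomial regression of methylated and unmethylated reads, with day as a number and dispersions moderated by limma, and p-values were adjusted by Benjamini-Hochberg over all features. All 10 genes passed the filter, and all 10 fell at an adjusted p below 0.05. So did 94.6% of all features and 100% of those starting at 80% or more, and 0% rose, so the fall itself does not set the genes apart. Slopes on the logit scale ran from -0.45 ± 0.04 per day (SE, n = 8 libraries) at DDX4, with an adjusted p of 2.03e-12, to -0.68 ± 0.05 at PIWIL2, with an adjusted p of 3.9e-14. The size of these p-values rests on the moderation. The same quasi-binomial regression without it gave adjusted p of 7.86e-05 at DDX4 and 7.73e-05 at PIWIL2.

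Whether a gene declined faster or slower than highly methylated DNA at large was tested in the same fit with the autosomal course as an offset. On the logit scale, 2 of the 10 genes declined faster and 0 slower. PIWIL2 differed by -0.154 per day (SE 0.042, adjusted p = 0.00952 by the limma-moderated test) and PIWIL1 by -0.076 (SE 0.028, adjusted p = 0.0496). Among all features 0.875% were called faster and 21.2% slower, among those starting at 80% or more 2.14% and 1.32%, and among those starting between 20 and 80% 0.0131% and 31.6%. At PIWIL1 the adjusted p lay at the threshold. DAZL, MAEL and MOV10L1 had differences of -0.098, -0.086 and -0.074, with adjusted p of 0.0655, 0.17 and 0.101. They were called faster under 4, 3 and 4 of 20 alternatives. Among these were the 5 deep libraries alone, with adjusted p of 0.017, 0.0135 and 0.0272 by the limma-moderated test. There 3855 of 247547 features were called faster. DDX4 had a difference of 0.077 (adjusted p = 0.0548), and it was called slower under 6 of 19 alternatives, among them the 5 deep libraries alone (0.085, adjusted p = 0.0184) and 50 reads per feature (0.079, adjusted p = 0.0242). The other 4 were the fits without day 2, day 3 or day 5 and without the allowance for correlated reads. DDX4 started between 20 and 80%, the class in which 31.6% of features were called slower. ASZ1, TDRD1, STK31 and HORMAD1 had differences of -0.016, 0.040, 0.022 and -0.009, with adjusted p from 0.377 to 0.844.

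Both calls were lost on the log scale, which compares the share of the starting level that is kept and was added after seeing the data. There 0 of 10 genes passed the limma-moderated test in either direction, against 0.698% of features called faster and 0.456% slower; 1 gene, DAZL, had an unadjusted p below 0.05. PIWIL2 differed by -0.003 per day (95% interval -0.039 to 0.032, adjusted p = 0.957) and PIWIL1 by -0.019 (-0.043 to 0.006, adjusted p = 0.484). The DAZL difference turned to 0.034 (0.008 to 0.061, unadjusted p = 0.015, adjusted p = 0.193). Both logit calls were also lost without day 6 (adjusted p = 0.0673 for PIWIL2 and 0.169 for PIWIL1), without day 7 (0.103 and 0.203) and without moderation of the dispersion (0.15 and 0.162). Over all features the faster calls fell from 1485 of 169719 to 289 of 169655 without day 6 and 507 of 169658 without day 7. The slower calls fell from 35910 to 18198 and 23058. Without moderation, 0 of 169719 features were called in either direction. The call of PIWIL1 was lost without any of days 0, 1, 2 and 5 as well. No gene was called on both scales.

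**Figure D2:**
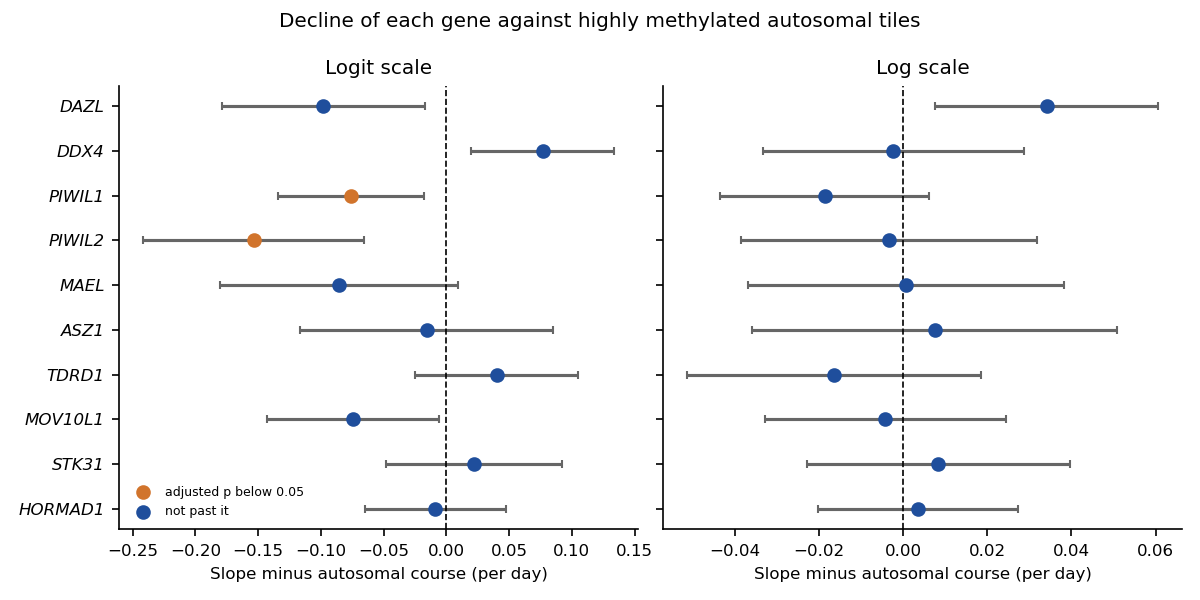
Slope of each gene minus that of the autosomal course (x, per day; negative is faster) on the logit scale (left) and the log scale (right), with 95% intervals; orange marks an adjusted p below 0.05. PIWIL1 and PIWIL2 are marked at left, at -0.076 and -0.154, and none at right.

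How much each gene kept was read as the day 7 level over the day 0 level. STK31 kept the most, 26.0% (counting interval 22.7 to 29.8%), followed by DDX4 with 22.0% (18.8 to 25.8%), DAZL with 21.7% (18.5 to 25.4%) and ASZ1 with 20.03% (16.1 to 24.9%). HORMAD1 kept 18.9% (16.6 to 21.5%), TDRD1 17.5% (14.0 to 21.9%), MOV10L1 16.5% (15.1 to 18.1%) and PIWIL1 15.4% (14.5 to 16.3%). PIWIL2 kept 13.3% (11.5 to 15.4%) and MAEL the least, 12.6% (10.3 to 15.4%). The intervals of all 9 adjacent pairs in this order overlapped, whereas the interval of STK31 did not reach those of the 6 lowest genes.

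The median kept by the 10 genes was 18.2%, against 20.9% in the median tile starting at 80% or more and 20.1% in the median tile starting between 20 and 80%. Of the 10 genes, 7 were under the median tile of their own starting class, 8 genes being in the upper class and 2, DDX4 and TDRD1, in the other. MAEL and PIWIL2 stood at percentiles 3.95 and 5.41 of those tiles, and STK31 at percentile 82.7. On day 2 the genes lay on the other side: they had kept a median of 86.9% of the day 0 level, against 83.5 and 83.3% in the median tiles, and 9 of 10 were above the median tile of their class. STK31, with 82.2%, was the one below. These are descriptions of single libraries, and no test was made of the genes as a set.

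**Figure D3:**
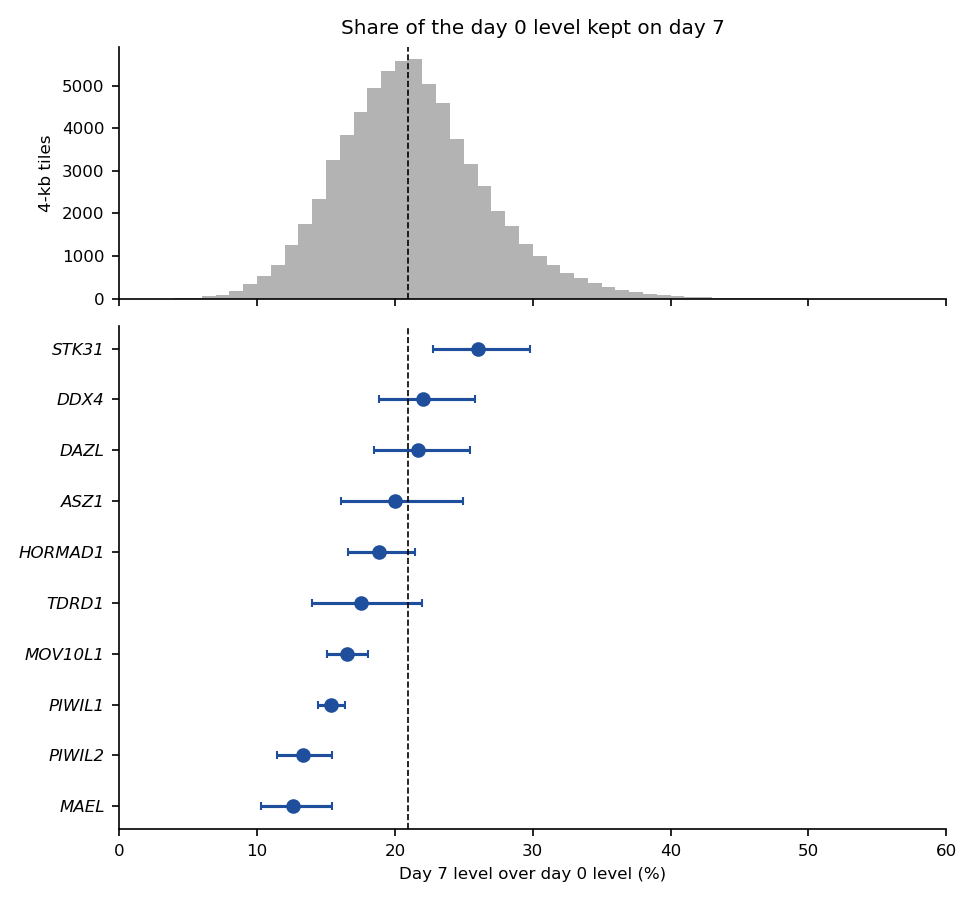
Day 7 level over day 0 level (x, percent) for 68835 autosomal 4-kb tiles starting at 80% or more (top, counts of tiles; 2 tiles lie past the axis) and for each gene with its counting interval (bottom); the dashed line is the median tile, 20.9%. STK31 lies right of the line at 26.0%, and MAEL and PIWIL2 lie left of it at 12.6 and 13.3%.

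Within a gene, the methylation left on day 7 differed between CpGs. For this, neighbouring listed CpGs less than 150 bp apart were joined into runs, after the values had been seen, so that the runs are described without a test. At STK31, the run at the start (6 CpGs, 119 bases upstream to 5 downstream) fell from 89.9 to 8.89%, the latter of 225 reads (interval 5.83 to 13.3%). The run 1021 to 1194 bases downstream (7 CpGs, hg19 chr7:23750807-23750980) began at a like level, 92.1%, and still stood at 31.8% of 399 reads (27.5 to 36.6%). On day 6 these runs stood at 16.8 and 32.2%. The place of STK31 at the top of the order rests on that downstream run: within 1 kb of the start the gene kept 14.1%.

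Inside the downstream run, 4 CpGs packed between 1130 and 1145 bases from the STK31 start, picked after the values had been seen, held most of the residue. They were methylated to 95.5, 84.2, 40.5 and 40.2% on days 0, 2, 6 and 7, the last of 234 reads (34.1 to 46.6%), with single CpGs between 34.9 and 47.6%. The pair of CpGs before them ended at 25% and the one after at 13.04%. A lone CpG 479 bases upstream of the start also ended high, at 50% of 26 reads (32.1 to 67.9%).

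At DAZL, the 14 CpGs marked in the first sequence above split in a like way, into sets also picked after the values had been seen. The first 6 in capitals, 67 to 97 bases upstream of the hg19 start, were methylated to 96.9, 93.0, 28.6 and 38.4% on days 0, 2, 6 and 7, the last of 164 reads (31.3 to 46.0%). The other 8, 13 to 64 bases on the gene's side of that start, read 94.9, 78.4, 24.0 and 5.98% on the same days, the last of 117 reads (2.93 to 11.8%). The sets were alike on day 6 and apart on day 7. The upstream CpGs had 25 to 29 reads each on day 7, and since neighbours share reads, few molecules stand behind the value. The run upstream of the second RefSeq start (9 CpGs, those in capitals in the second sequence) ended at 12.7% of 220 reads (8.95 to 17.8%).

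DDX4 showed a like contrast in its upstream flank. The run 692 to 788 bases upstream (5 CpGs) fell from 74.9% to 9.73% of 257 reads (6.68 to 14.0%), and the run 1184 to 1389 bases upstream (11 CpGs) from 73.1% to 19.1% of 572 reads (16.05 to 22.5%). On day 6 they stood at 20.4 and 18.7% with overlapping intervals. Within 1 kb of the start DDX4 kept 14.0%.

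PIWIL1 was read over the longest stretch. Its run at the start (25 CpGs, 236 bases upstream to 91 downstream) ended at 7.85% of 726 reads (6.11 to 10.04%), and the long run in the gene, 262 to 1602 bases downstream (91 CpGs), at 14.5% of 5254 reads (13.6 to 15.5%). They had begun at 85.6 and 87.7%, and on day 6 they stood at 12.3 and 19.2%. The run at the start kept 9.17% of its day 0 level (7.14 to 11.8%) and the long run 16.5% (15.4 to 17.6%). The long run held 5254 of the 6726 reads of PIWIL1 on day 7, so the values of the whole gene mostly describe it. Part of it has CpGs at an even spacing, as at positions 130822834, 130822918, 130823002 and 130823086. Whether reads were placed uniquely there was not tested. At MOV10L1 the main run (53 CpGs, 156 bases upstream to 421 downstream) ended at 14.3%, and 3 CpGs 625 to 649 bases downstream, at 87.7% on day 0, at 1 of 65 reads (0.272 to 8.21%). The 4 CpGs beyond them, 802 to 831 bases downstream, had 4 of 7 reads methylated on day 7 (25.05 to 84.2%), too few to place. At HORMAD1, by contrast, the run next to the start (415 to 539 bases away) and the one 1715 to 1917 bases away ended at 19 and 15.3% with overlapping intervals, and at ASZ1 the run at the start and that 1960 to 1976 bases away ended at 17.6 and 16.7%.

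**Figure D4:**
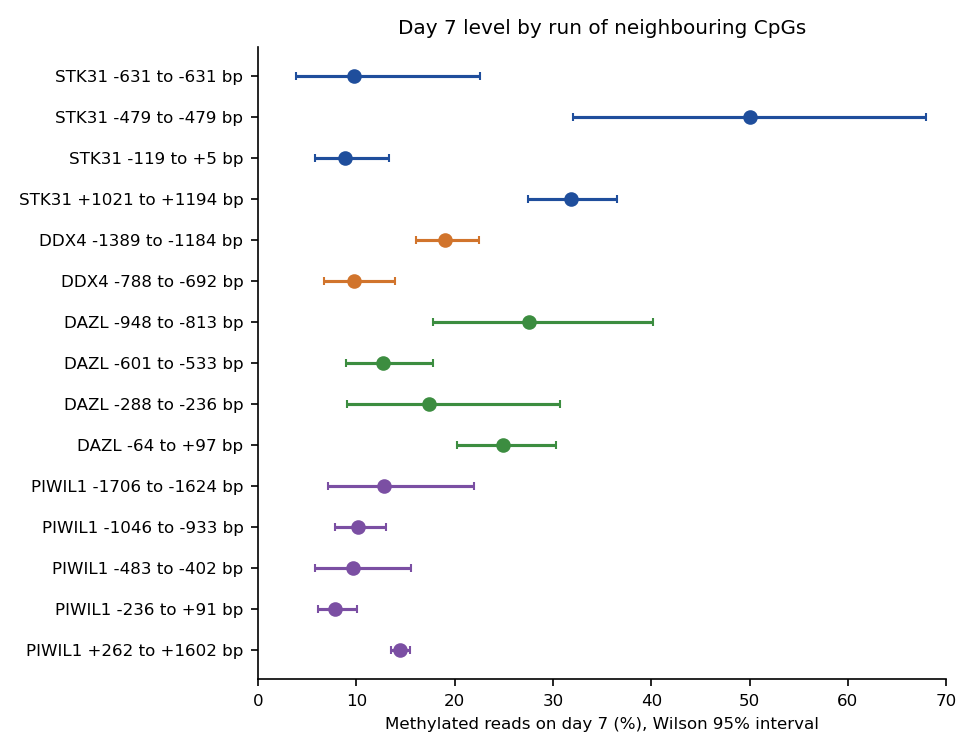
Day 7 level (x, percent of methylated reads, Wilson 95% interval) of each run of neighbouring CpGs with at least 20 reads on days 0 and 7 in 4 genes; labels give the distance from the start in the direction of the chromosome. The STK31 run at +1021 to +1194 lies at 31.8% and the one at -119 to +5 at 8.89%.

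Single CpGs were followed where no deep library had fewer than 20 reads, which held for 193 of the 340. On day 0, 160 of them stood at 80% or more, 33 between 20 and 80% and 0 at 20% or less. On day 2, 54 were still at 80% or more. On day 7, 161 stood at 20% or less, 32 in between and 0 at 80% or more, with a median of 13.5%, and none of the 193 was without a methylated read. Among the 192 CpGs at 50% or more on day 0, the share kept ran from 3.66% at a MOV10L1 CpG (hg19 chromosome 22, position 50528291), which fell from 88.1% to 1 of 31 reads, to 49.2% at an STK31 CpG (chromosome 7, position 23750926), which fell from 96.8% to 47.6% of 42 reads (interval 33.4 to 62.3%). The most retained CpG of TDRD1 (chromosome 10, position 115940285) kept 48.05%, from 59.5% of 37 reads to 28.6% of 28 (15.3 to 47.1%). Some CpGs outside the 193, with fewer than 20 reads in another deep library, had no methylated read on day 7. Examples were 0 of 37 reads at a PIWIL1 CpG and 0 of 27 at a DAZL CpG.

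Of the 193 well-read CpGs, the one nearest to the start ended at 5.26 to 20% on day 7 in the 5 genes that had one within 100 bp. At PIWIL2 it lay 2 bases from the start and fell from 89.7% to 18.8% of 48 reads (10.2 to 31.9%). At ASZ1 it lay 15 bases away and fell from 84.5% to 15.6% of 45 reads (7.75 to 28.8%). At MOV10L1 it lay 47 bases away and fell from 90.9% to 20% of 90 reads (13.0 to 29.4%). MAEL, at 59 bases, and PIWIL1, at 67 bases, ended lower, with 5.26% of 57 reads (1.81 to 14.4%) and 8.22% of 73 (3.82 to 16.8%). The values at PIWIL2, ASZ1 and MOV10L1 lay above the 13.5% median of the 193 CpGs, and those at MAEL and PIWIL1 below it. All 5 intervals held that median, so the sides are not resolved. PIWIL1 gave 68 of the 193 CpGs and MOV10L1 40.

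**Figure D5:**
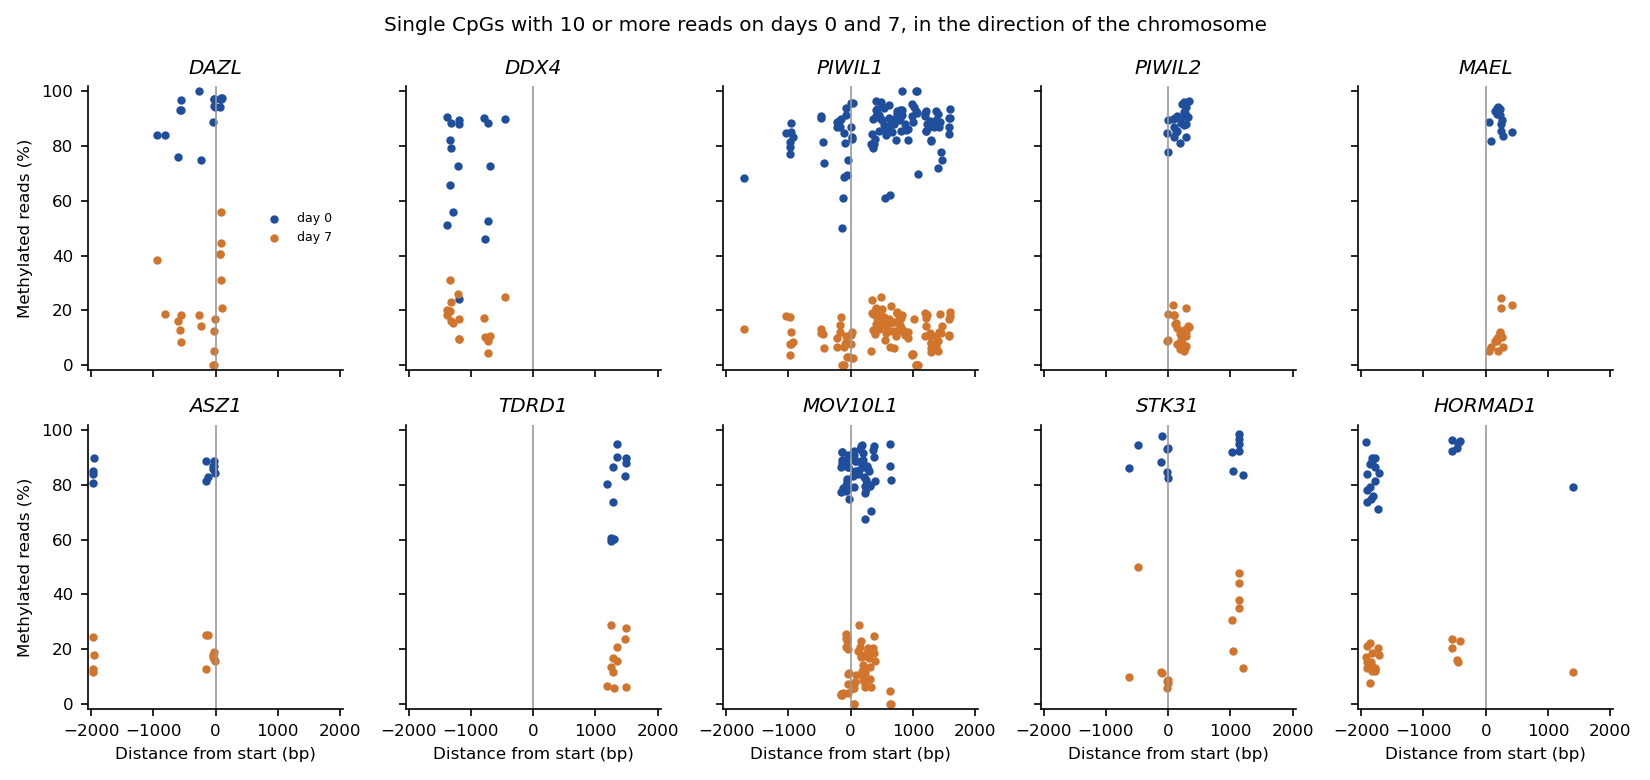
Percent of methylated reads (y) at single CpGs with 10 or more reads on days 0 and 7, against distance from the start in bp (x), in the direction of the chromosome; blue is day 0 and orange day 7. The STK31 CpGs just past +1000 keep more than those at the start, and TDRD1 has no CpG near its start.

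Motifs of factors known to hold germline genes silent were looked up in the promoter sequences, on both strands. CACGTG, the E-box bound by MAX with MGA, was in 5 of the 11 promoter entries. These entries belonged to 4 of the 8 genes with an entry, DAZL, MAEL, STK31 and TDRD1. The TDRD1 entries overlap, so a motif copy can count in both. Of all 35116 RefSeq promoters of the same 300 bases, 7.26% held the motif. TCCCGC, a motif of E2F factors, was in 7 of the 11 (of ASZ1, DAZL, MAEL, MOV10L1, PIWIL1 and STK31) and in 26.9% of all. The median RefSeq promoter held 14 CGs, while the entries of these genes held 17 (TDRD1) to 60 (MAEL), and that of DDX4 held 1; the shares were not matched for this. A match is only a string of letters; both strings hold a CpG, whose methylation could be read where RRBS covered it.

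The CpG of an E-box was read in 2 placed promoters, where it appears as caCGtg in the sequences of the second DAZL start and of STK31. At DAZL, with the motif 152 bases before the second RefSeq start, it was 93.1, 78.2, 22.2 and 8.33% methylated on days 0, 2, 6 and 7, with 3 of 36 reads methylated at the end (2.87 to 21.8%). At STK31, 65 bases before the RefSeq start, it was 84.8, 68.2, 14.7 and 5.56%, with 2 of 36 reads at the end (1.54 to 18.1%). Both intervals hold the day 7 level of the run the CpG belongs to, 12.7% at DAZL and 8.89% at STK31. Each run includes the CpG's own reads and the intervals are wide, so a difference from the neighbours could hardly have been seen.

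The CpG of a TCCCGC motif was read in 3 placed promoters. At STK31, 56 bases before the RefSeq start, it fell from 82.6% to 8.57% of 35 reads (2.96 to 22.4%), and at PIWIL1, 71 bases before, from 94% to 10.4% of 48 reads (4.53 to 22.2%). At MAEL, where it lies just past the RefSeq start, it fell from 91.7% to 8.70% of 69 reads (4.05 to 17.7%).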

How the data were processed

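RRBS libraries of HUES64 DNMT1 knockout cells, 1 per day, were made by a published protocol adapted to small cell numbers, per the labels' protocols, and placed on hg19, per the submitters' processing notes; which aligner, caller and filters were used was not given in the sources used here. Per CpG, the authors deposited methylated over total read counts and a score equal to 1000 times the methylated share, rounded (100% of lines in each library); the score was not used further. Positions count from 1.

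The members, gene lists and comparisons were chosen with earlier results of these data known. All 10 genes are named. Single CpGs are named if nearest to the start or most or least kept on day 7. Reads were summed per window and fitted as described, with limma 3.58.1 in R 4.3.3, Python 3.11.15 and NumPy 2.4.6. The planned model made too many false calls on simulated reads, so reads were weighted for calls that vary together within a library (correlation 0.00797 for the trend and 0.00315 for the difference, estimated on every 10th feature). The weighted model was tested on simulated data. There is 1 course, so p-values measure spread around the trend, not between courses. Wilson and log-ratio intervals are 95%. RefSeq promoters are of GRCh38. No hg19 gene annotation was used, so exons and introns are not given. Alternatives covered CpG filters, windows, coverage, libraries, scale and reference course.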

Additional observations from a re-analysis of the deposited data

How the results depend on the processing

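All 10 genes fell under each alternative in which they could be tested: 9 with windows of 1 kb, 8 with 500 bp and 7 with 50 reads in every library. TDRD1 has no CpG in the smaller windows, and DDX4 too few reads within 500 bp. The median share kept was 15.9 to 18.6% over the alternatives. The count of genes whose decline differed from the autosomal course, 2, was not stable. It was 1 with CpGs listed in all 8 libraries, with 10 reads at the CpG in each deep library and with windows of 1 kb or 500 bp, which kept PIWIL2 alone, and 6 in the 5 deep libraries, 5 faster and DDX4 slower. Over all features, 1438 of 164852, 1468 of 163083, 1259 of 198525 and 982 of 222725 were called faster in the settings with 1 gene. There 28603 to 34306 were called slower. In the 5 deep libraries 3855 of 247547 were called faster and 51091 slower. The count of genes was 0 without moderation of the dispersion, where 0 of 169719 features were called in either direction. Against the course of tiles at 20 to 80% it was 7, all faster. There 54064 of 169719 features were called faster and 6443 slower. Leaving out 1 day gave 0 to 3: 0 without day 6 or day 7 and 1 without day 1. In these fits 289 to 2026 of 169588 to 186292 features were called faster and 15642 to 40238 slower. Of the alternatives added after seeing the data, no allowance for correlated calls, as first planned, gave 6 (5 faster and DDX4 slower), the log scale 0 and the log scale in the 5 deep libraries 0. Without that allowance 4302 of 169719 features were called faster and 55268 slower. On the log scale 1184 and 774 of 169719 were, and in its 5 deep libraries 38 and 139 of 247547. The adjusted p of the limma-moderated test ranged from 0.00013 to 0.957 for PIWIL2 and from 0.000123 to 0.484 for PIWIL1.

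Some differences changed sign, and none of the changed values passed. On the log scale they were 0.0341 for DAZL, -0.00234 for DDX4, 0.000646 for MAEL, 0.0075 for ASZ1, -0.0164 for TDRD1 and 0.00357 for HORMAD1 per day, and with the 5 deep libraries 0.0185 for DAZL, 0.0166 for ASZ1, -0.00832 for TDRD1 and 0.0014 for HORMAD1. Against tiles at 20 to 80% they were -0.0398 for DDX4, -0.0744 for TDRD1 and -0.0871 for STK31. STK31 gave -0.0564 within 1 kb, -0.041 within 500 bp, -0.00382 without day 1 and -0.0017 without day 7; ASZ1 gave 0.00124 in the 5 deep libraries and 0.0177 without day 2; HORMAD1 gave 0.0157 without day 7. With 1 day left out at a time the range was -0.0576 to 0.0177 for ASZ1, -0.00382 to 0.0684 for STK31 and -0.01995 to 0.0157 for HORMAD1. The cause was not tested. Days 3 to 5 hold as few as 33 reads per gene, and single CpGs could not be followed there. No paired analysis was possible because each day has 1 library.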
